A study of Homo sapiens with 4 samples.

Results

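Small nucleolar RNA host genes were followed in RNA-seq of the established human cell line JJN3, which comes from multiple myeloma, a cancer of plasma cells. The genes were chosen by name from the count table: every SNHG symbol with a number, plus GAS5, ZFAS1, EPB41L4A-AS1 and DANCR. This gave 32 genes of 60682 in the table. Cells transduced with an shRNA against the kinase WNK1 (shWNK1, 2 libraries) were compared with cells transduced with the NS shRNA (NS, 2 libraries), and total RNA was sequenced from both. All 4 libraries thus come from 1 line that had been transduced, with no untransduced cells among them.

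A small nucleolar RNA (snoRNA) host gene is transcribed and spliced like an mRNA gene, but its introns are the part with the best known use. Trimmed introns release snoRNAs, which guide chemical modification of ribosomal RNA: box C/D snoRNAs (SNORD) direct 2′-O-methylation and box H/ACA snoRNAs (SNORA) direct pseudouridylation. The spliced exons mostly encode no protein. Many such RNAs begin with a terminal oligopyrimidine tract, as ribosomal protein mRNAs do, and many are degraded by nonsense-mediated decay, the pathway that removes RNAs with early stop codons when they are translated. GAS5 is the classic case, named for its accumulation in cells whose growth has stopped.

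To show what these genes carry and how their RNAs begin, a few sequences are given. The first 3 are snoRNAs encoded in introns of members, from the GENCODE v29 transcripts, with hg38 coordinates from the count table. Capitals mark box C and box D in the SNORD sequences and box ACA in the SNORA sequence. SNORD93 lies in SNHG26 (chr7:22856613-22856686, plus strand), SNORA73B in SNHG3 (chr1:28508559-28508762, plus strand) and SNORD104 in SNHG25 (chr17:64146083-64146152, plus strand).
SNORD93: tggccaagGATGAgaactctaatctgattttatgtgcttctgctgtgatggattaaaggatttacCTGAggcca
SNORA73B: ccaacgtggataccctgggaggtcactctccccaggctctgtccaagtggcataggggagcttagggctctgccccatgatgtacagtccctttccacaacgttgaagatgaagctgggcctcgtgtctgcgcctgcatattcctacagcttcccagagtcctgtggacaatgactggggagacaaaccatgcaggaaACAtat
SNORD104: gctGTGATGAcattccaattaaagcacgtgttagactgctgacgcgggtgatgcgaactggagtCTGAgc

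The next set shows transcript starts from RefSeq (GRCh38.p14), with 10 bases before the annotated start in lower case and 30 from it. Capitals mark the unbroken run of C and T that begins at the start, and a sequence with no capitals has no such run. The RefSeq start of GAS5, at 173869045, lies upstream of its span in the count table (173858559 to 173868882). Its window is thus outside the counted gene. SNHG4, SNHG12, SNHG19 and SNHG26 were lower in shWNK1 cells, and ZFAS1, GAS5, SNHG16 and SNHG29 were higher, as described below.
SNHG4 (chr5:139274091-139274130, plus strand): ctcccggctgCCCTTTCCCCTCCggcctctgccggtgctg
SNHG12 (chr1:28581844-28581883, minus strand): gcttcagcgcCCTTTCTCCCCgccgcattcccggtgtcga
SNHG19 (chr16:2155329-2155368, minus strand): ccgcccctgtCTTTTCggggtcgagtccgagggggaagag
SNHG26 (chr7:22854230-22854269, plus strand): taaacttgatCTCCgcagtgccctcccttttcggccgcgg
ZFAS1 (chr20:49278632-49278671, plus strand): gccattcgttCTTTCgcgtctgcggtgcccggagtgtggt
GAS5 (chr1:173869016-173869055, minus strand): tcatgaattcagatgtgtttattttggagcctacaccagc
SNHG16 (chr17:76557754-76557793, plus strand): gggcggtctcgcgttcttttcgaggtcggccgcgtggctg
SNHG29 (chr17:16438977-16439016, plus strand): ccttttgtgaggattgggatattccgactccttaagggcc

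Total counts were 16973521 and 20164122 for shWNK1, against 17491537 and 17392619 for NS. WNK1 was at 18.6 and 19.6 CPM (counts scaled to library size, here with TMM factors) in shWNK1 and at 288 and 245 CPM in NS libraries. Plasma cell markers and the oncogene MAF, 7 genes in all, were above 1 CPM in every library. Some differed between the groups. SDC1 was at 82.0 and 91.4 CPM in shWNK1 and 209 and 225 CPM in NS libraries. SLAMF7 was at 12.1 and 11.3 CPM in shWNK1 and only 1.349 and 1.655 CPM in NS libraries. Of the markers of other cell types, 17 of 19 were below 1 CPM in every library. The exceptions were the B-cell factor PAX5, at 2.92 and 3.07 CPM in shWNK1 and 7.86 and 6.68 CPM in NS libraries, and the epithelial marker EPCAM, at 120 and 126 CPM in shWNK1 and 109 and 119 CPM in NS libraries. The NS libraries differed from each other with gene length: the median log2 ratio of NS replicate 2 to NS replicate 1 was 0.11 for tested genes with up to 500 exon bases and -0.04 for those over 5000, while that of shWNK1 replicate 2 to replicate 1 was -0.01 and 0.01. Results that rest on either NS library are given with and without it. In RNA pooled from many cells, fewer cells that express a gene and less RNA of it per cell cannot be told apart.

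Of the 32 members, 26 had enough counts to be tested. The 6 others had few or no counts. SNHG28 had 0 counts in every library, which allows up to 0.172 and 0.146 CPM in shWNK1 and 0.176 and 0.177 CPM in NS libraries (3 counts, counting error only), and SNHG27 had 1 and 0 counts with shWNK1 against 0 and 2 with NS. SNHG21 and SNHG22 are hosts of small Cajal body RNAs, which guide modification of spliceosomal RNAs. SNHG21 had 4 and 7 counts with shWNK1 against 0 and 12 with NS, and SNHG22 had 2 and 15 with shWNK1 against 2 and 0 with NS. SNHG25 had 0 and 3 counts with shWNK1 against 4 and 10 with NS, and SNHG18 had 6 and 11 with shWNK1 against 13 and 8 with NS. These counts are too few for any comparison.

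Members moved in both directions. In shWNK1 cells 10 of the 26 tested host genes rose, 6 fell and 10 were not called (edgeR quasi-likelihood test, Benjamini-Hochberg adjusted over all genes tested). Across all 14864 tested genes 38.8% were called, 18.5% as rises and 20.2% as falls, where the members had 38.5% and 23.1%. The share of falls was near that background. The median level was 52.7 CPM for the tested members and 21.3 CPM for all tested genes. The shares called are therefore not comparable at equal depth, and no test was made between them. The median log2 fold change of the tested members was 0.16, against 0.01 over all tested genes. Leaving out shWNK1 replicate 1 gave 5 rises and 5 falls among the members, with a median of 0.03 over the 30 members then tested. Leaving out shWNK1 replicate 2 gave 7 rises and 5 falls, NS replicate 1 gave 7 and 8, and NS replicate 2 gave 13 and 5. The groups did not overlap for 21 members, with shWNK1 higher for 13 and lower for 8, where 68.4% of all tested genes were separated in this way. Against a fold change of 1.5, 0 members rose and 1, SNHG26, fell.

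Together the 32 genes took 0.197% (95% Wilson bounds 0.195 and 0.200) and 0.190% (0.188 and 0.192) of all counts with shWNK1, and 0.156% (0.154 and 0.158) and 0.174% (0.172 and 0.176) with NS. The shWNK1 shares were above both NS shares, by 0.0287 percentage points on average. With 2 libraries against 2, the exact two-sided permutation test cannot go below p = 0.333, which is the value found.

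**Figure D1:**
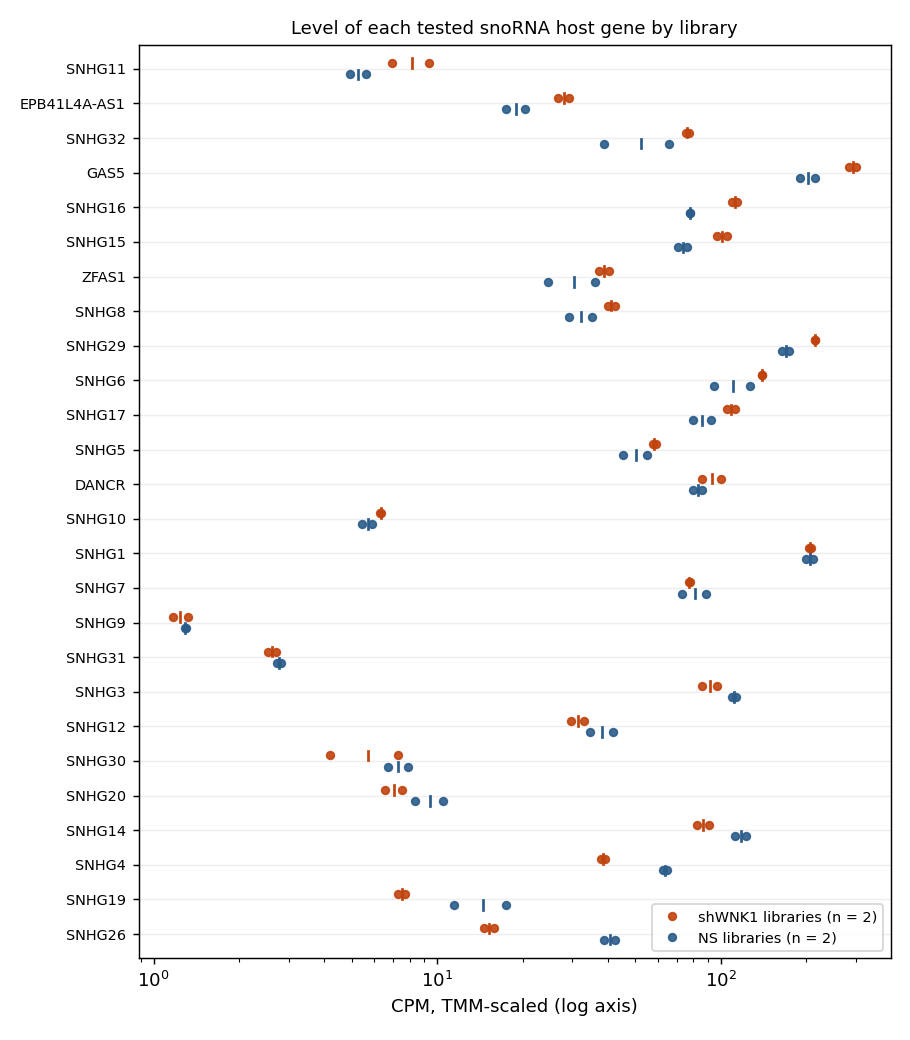
Level of each of the 26 tested host genes in CPM on a log axis, with 1 point per library, a bar at the mean of each group, shWNK1 above NS in each row and genes ordered by fold change. GAS5, SNHG16, SNHG15 and SNHG29 have both shWNK1 points above both NS points, and SNHG26, SNHG4, SNHG19 and SNHG14 have both below.

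Hosts of box C/D snoRNAs included the rise with the smallest p and the largest fall. GAS5 (ENSG00000234741.8, chromosome 1, 173858559 to 173868882, minus strand, hg38) holds 10 SNORD genes and 1 SNORA gene in RefSeq. It had 300.9 and 283 CPM in shWNK1 libraries, against 190.5 and 215 CPM in NS libraries. The groups did not overlap. GAS5 rose 1.44-fold (log2 0.53, SE 0.06, edgeR adjusted p = 5.9e-08), with a log2 fold change of 0.44 to 0.62 when any 1 library was left out.

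SNHG16 (chromosome 17, 76557764 to 76565348), the host of 3 SNORD genes, was at 109.9 and 114 CPM in shWNK1 libraries and at 78.0 and 78.1 CPM in NS libraries. Its NS values were nearly equal and the groups were well apart (log2 0.52, SE 0.07, edgeR adjusted p = 5.4e-07). SNHG29 (chromosome 17, 16438767 to 16478678), another host of 3 SNORD genes, was at 214 and 215 CPM in shWNK1 and 165 and 174 CPM in NS libraries (log2 0.34, SE 0.06, edgeR adjusted p = 3.4e-05). Both remained called with every library left out in turn and with DESeq2.

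SNHG6, the host of SNORD87 in RefSeq, and ZFAS1, the host of the 3 SNORD12 genes, rose by calls that rested on single libraries. SNHG6 was at 139.8 and 139.5 CPM in shWNK1 and at 94.8 and 126 CPM in NS libraries (log2 0.34, SE 0.10, edgeR adjusted p = 0.0172). Both shWNK1 values exceeded both NS values, but NS replicate 1 was far below NS replicate 2: the log2 fold change was 0.14 without NS replicate 1 (edgeR adjusted p = 0.0850) and 0.56 without NS replicate 2. Its adjusted p was 0.0573 without shWNK1 replicate 1, 0.0668 without shWNK1 replicate 2 and 0.229 with DESeq2. ZFAS1 (chromosome 20, 49278178 to 49299600) was at 40.5 and 37.3 CPM in shWNK1 and at 24.6 and 36.2 CPM in NS libraries (log2 0.36, SE 0.13, edgeR adjusted p = 0.0401). The lower shWNK1 library was close to the higher NS library, and the log2 fold change was 0.10 without NS replicate 1 (edgeR adjusted p = 0.524) and 0.67 without NS replicate 2. The ZFAS1 call also ended without shWNK1 replicate 1 (0.243), without shWNK1 replicate 2 (0.104) and with DESeq2 (0.0966).

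Among the C/D hosts that were not called, SNHG1, a host of 8 SNORD genes in RefSeq, was at 208 and 205 CPM in shWNK1 and 200.3 and 212 CPM in NS libraries. The groups overlapped, and the log2 fold change was 0.0042 with an SE of 0.06 (edgeR adjusted p = 0.968), which turned negative without shWNK1 replicate 1 (-0.0021) or NS replicate 1 (-0.04). SNHG32, a host of 2 SNORD genes in the major histocompatibility region that GENCODE v29 types as protein coding, was at 77.3 and 75.3 CPM in shWNK1 and at 38.9 and 65.7 CPM in NS libraries (log2 0.54, SE 0.30, edgeR adjusted p = 0.284). The NS libraries differed widely: the log2 fold change was 0.21 without NS replicate 1 (edgeR adjusted p = 0.0365) and 0.98 without NS replicate 2 (5.7e-23). SNHG5, the host of SNORD50 genes, was at 58.9 and 57.9 CPM in shWNK1 and 45.3 and 55.1 CPM in NS libraries (edgeR adjusted p = 0.0610; 7.3e-04 without NS replicate 2). SNHG30, at 4.19 and 7.25 CPM in shWNK1 and 6.68 and 7.86 CPM in NS libraries, overlapped between groups (edgeR adjusted p = 0.273; 0.0492 without shWNK1 replicate 2).

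SNHG26 (ENSG00000228649.9, chromosome 7, 22854126 to 22872945, plus strand) showed the largest change of any tested member. It had 15.9 and 14.6 CPM in shWNK1 libraries, against 38.8 and 42.3 CPM in NS libraries. The groups were far apart, and SNHG26 was 2.66-fold lower in shWNK1 cells (log2 -1.41, SE 0.12, edgeR adjusted p = 1.8e-11), with a range of -1.47 to -1.34 when 1 library was left out. Its intronic SNORD93, printed above, had 1 and 0 counts with shWNK1 against 11 and 7 with NS, too few to be tested.

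SNHG19 (chromosome 16, 2154797 to 2155358), the host of SNORD60, has only 342 exon bases. It was at 7.68 and 7.30 CPM in shWNK1 and at 11.5 and 17.4 CPM in NS libraries (log2 -0.95, SE 0.19, edgeR adjusted p = 1.1e-04). Both shWNK1 values were below both NS values, and the log2 fold change was -1.22 with NS replicate 1 left out and -0.61 with NS replicate 2 left out. SNHG14 (chromosome 15, 24978583 to 25420336) is the very long transcript of the imprinted Prader-Willi region, with 84 SNORD genes in the count table. It was at 82.7 and 91.2 CPM in shWNK1 and at 123 and 112 CPM in NS libraries (log2 -0.43, SE 0.07, edgeR adjusted p = 1.7e-05). SNHG14 runs antisense to UBE3A, a ubiquitin ligase gene: 8.1% of its exon bases lie inside the span of UBE3A, whose reads cannot be told apart there because strand was not used. UBE3A was not called (log2 0.07, SE 0.08, edgeR adjusted p = 0.486; 0.20 and adjusted p = 0.0199 without NS replicate 1). All 84 SNORD genes inside SNHG14 had 0 counts in every library. Of these, 36 lie wholly within annotated SNHG14 exons, where reads shared by overlapping genes were not counted, so that their 0 says nothing of expression. Another 45 lie wholly outside its exons and are mainly copies of SNORD115. Reads of snoRNA copies that map to several places may be lost by such counting, so their 0 cannot be read as absence either.

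**Figure D2:**
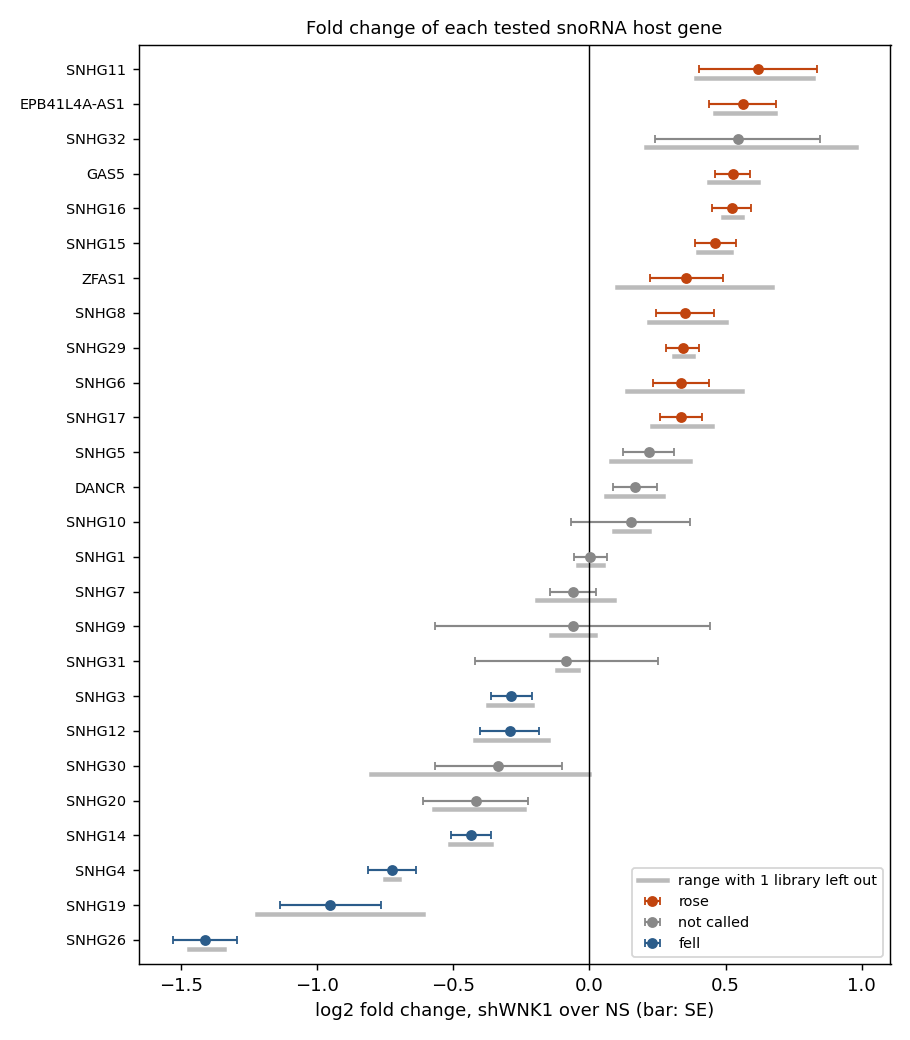
Fold change of each tested host gene, shWNK1 over NS on the log2 scale, with its SE as a bar, coloured by call; the grey line under each point is the range when 1 library was left out. SNHG26 sits at -1.41, SNHG1 at 0.0042, and the grey ranges of SNHG30, SNHG32, SNHG19 and ZFAS1 are the widest.

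Hosts of box H/ACA snoRNAs also went both ways. SNHG15 (chromosome 7, 44983023 to 44986961), the host of SNORA9 in RefSeq, was at 106 and 96.9 CPM in shWNK1 and at 70.8 and 76.0 CPM in NS libraries. The groups did not overlap, and SNHG15 rose 1.38-fold (log2 0.46, SE 0.08, edgeR adjusted p = 1.0e-05). EPB41L4A-AS1 (chromosome 5, 112160526 to 112164818), the host of SNORA13, was at 26.8 and 29.1 CPM in shWNK1 and at 17.5 and 20.3 CPM in NS libraries (log2 0.56, SE 0.12, edgeR adjusted p = 4.4e-04). All of its exon bases lie in the span of the opposite-strand gene EPB41L4A, and 56.4% of them overlap exons of that gene, which was not called (log2 -0.14, edgeR adjusted p = 0.505).

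SNHG17 (chromosome 20, 38419638 to 38435409) holds 5 SNORA genes of the SNORA71 family in the count table. It was at 112 and 106 CPM in shWNK1 and at 79.9 and 92.6 CPM in NS libraries (log2 0.34, SE 0.08, edgeR adjusted p = 7.0e-04). The groups did not overlap, but the call ended without shWNK1 replicate 1 (edgeR adjusted p = 0.0548), and the log2 fold change was 0.23 without NS replicate 1. SNHG8, the host of SNORA24, was at 42.4 and 40.0 CPM in shWNK1 and 29.3 and 35.3 CPM in NS libraries (log2 0.35, edgeR adjusted p = 0.0080). That call ended when either shWNK1 library was left out (0.126 for replicate 1, 0.0509 for replicate 2) and when NS replicate 1 was (0.111, with a log2 fold change of 0.22). SNHG11, a host of 2 SNORA genes, had the highest log2 fold change at 0.62 but few counts, with 9.35 and 6.91 CPM in shWNK1 and 4.93 and 5.61 CPM in NS libraries (SE 0.22, edgeR adjusted p = 0.0226). It was not called without shWNK1 replicate 1 (0.343, log2 0.39), without NS replicate 1 (0.0871) or with DESeq2 (0.0989).

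SNHG4 (ENSG00000281398.4, chromosome 5, 139274102 to 139284899, plus strand), the host of SNORA74 genes, was at 39.2 and 37.9 CPM in shWNK1 libraries and at 64.9 and 62.4 CPM in NS libraries. Values within each group were close and the groups were far apart. It was 1.65-fold lower in shWNK1 cells (log2 -0.72, SE 0.09, edgeR adjusted p = 5.5e-08), with a range of -0.75 to -0.70 when 1 library was left out. SNHG4 lies wholly within the span of SIL1, an opposite-strand gene for an ER nucleotide exchange factor. It shares 2.64% of its exon bases with exons of SIL1 and 14% with MATR3 on its own strand. Reads of SIL1 cannot be told apart within SNHG4 because strand was not used. SIL1 had 381 and 524 counts with shWNK1 against 536 and 554 with NS. How far SIL1 reads enter the change of SNHG4 was not tested.

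SNHG3 (chromosome 1, 28505980 to 28510892) is the host of SNORA73A and SNORA73B, the U17 snoRNAs, which act in early cleavage of the ribosomal RNA precursor rather than in modification. It was at 97.2 and 86.2 CPM in shWNK1 and at 109.6 and 114 CPM in NS libraries (log2 -0.29, SE 0.07, edgeR adjusted p = 0.0023; 0.161 without shWNK1 replicate 2). RCC1, the nuclear exchange factor for RAN, shares 5.92% of the exon bases of SNHG3 on the same strand and fell as well, by 0.38 on the log2 scale. SNHG12, which holds both classes of snoRNA, was at 33.0 and 29.6 CPM in shWNK1 and 34.7 and 41.8 CPM in NS libraries. The gap between the groups was small (log2 -0.29, SE 0.11, edgeR adjusted p = 0.0326), and the call ended without shWNK1 replicate 1 (0.0789), without shWNK1 replicate 2 (0.315), without NS replicate 2 (0.353, log2 -0.15) and with DESeq2 (0.107).

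The H/ACA hosts that were not called were DANCR, SNHG7, SNHG9 and SNHG31. DANCR, the host of SNORA26, was at 100.4 and 85.9 CPM in shWNK1 and 79.7 and 86.1 CPM in NS libraries (log2 0.17, SE 0.08, edgeR adjusted p = 0.101; 0.0150 without NS replicate 2). SNHG7 was at 77.8 and 77.4 CPM in shWNK1, between the NS values of 73.2 and 88.5 CPM (edgeR adjusted p = 0.618; 0.0462 without NS replicate 1). SNHG9 and SNHG31 stood between 1.17 and 2.81 CPM in every library. The hosts of small Cajal body RNAs, SNHG10 and SNHG20, were also low, at 6.31 and 6.32 CPM in shWNK1 against 5.45 and 5.91 CPM in NS for SNHG10, and at 6.54 and 7.54 CPM in shWNK1 against 8.39 and 10.5 CPM in NS for SNHG20 (edgeR adjusted p = 0.627 and 0.0869; the call on SNHG20 was reached without NS replicate 1, at 0.0295).

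By class of snoRNA held in RefSeq, the 10 hosts that rose comprised 4 with SNORD genes alone, 5 with SNORA genes alone and 1 with both. The 6 that fell comprised 3, 2 and 1. Hosts of either class were thus found on both sides. Of the 16 calls, 9 stood with each library left out in turn and with DESeq2: the rises of GAS5, SNHG16, SNHG15, SNHG29 and EPB41L4A-AS1 and the falls of SNHG26, SNHG4, SNHG14 and SNHG19.

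For an order of the members by level, CPM per 1000 exon bases was used. Exon length here is the union over all annotated transcripts, which includes retained introns, so that long annotations lower this level. Exon bases shared with other genes stay in the length, although reads there were given to neither gene. Such bases made up 36.4% for SNHG6, 15.4% for SNHG1, 6.03% for GAS5 and 0% for SNHG19. SNHG6 had the highest level per length, 112 ± 0.141 in shWNK1 and 88.7 ± 17.9 in NS cells (mean ± SD, n = 2 libraries each). GAS5 followed in shWNK1 cells with 60.3 ± 2.67, and SNHG1 with 52.1 ± 0.549. In NS cells SNHG1 stood at 51.9 ± 2.08 and GAS5 at 41.8 ± 3.53, so their order was turned. SNHG19 was at 21.9 ± 0.796 in shWNK1 and at 42.3 ± 12.3 in NS cells, where its spread overlapped that of GAS5. SNHG14, spread over 122609 exon bases, was the lowest at 0.709 ± 0.0493 in shWNK1 and 0.959 ± 0.0605 in NS cells.

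**Figure D3:**
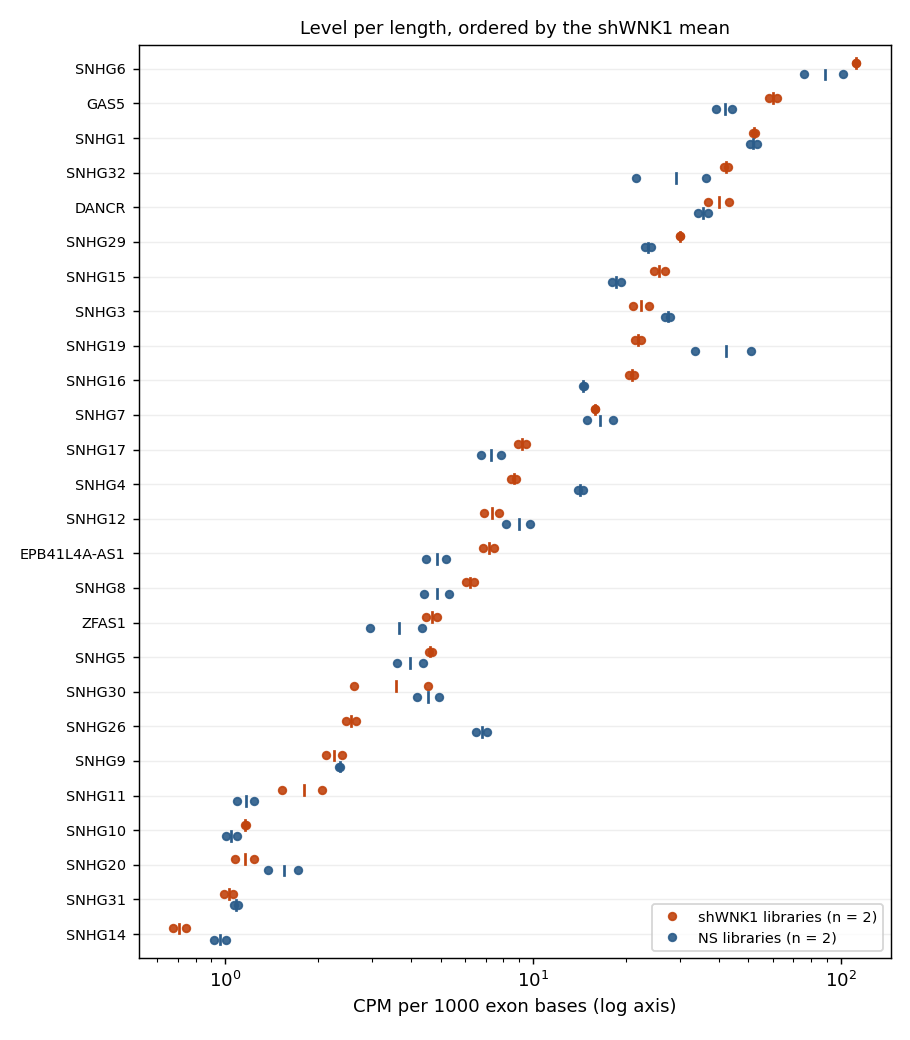
CPM per 1000 exon bases of the 26 tested host genes on a log axis, with 1 point per library and a bar at each group mean, shWNK1 above NS in each row, ordered by the shWNK1 mean. Levels span from 0.709 for SNHG14 to 112 for SNHG6 in shWNK1 cells.

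Few of the snoRNAs themselves were counted, and the counting could not assign reads to many of them. The table lists 140 snoRNA genes inside the spans of members on the same strand, in 30 of the 32 hosts, and 125 of them had 0 counts in all 4 libraries. Of the 140, 73 lie wholly within annotated exons of the host. Reads there overlap both genes and were given to neither, and all 73 were at 0. Outside SNHG14, 16 lie wholly outside host exons, and 13 of these had counts. For GAS5 the table lists none, although RefSeq places 11 there. Only 10 had at least 10 counts in all and only 3 could be tested. SNORA73B, in SNHG3, was at 2.12 and 2.48 CPM in shWNK1 and 3.81 and 4.14 CPM in NS libraries (log2 -0.78, SE 0.31, edgeR adjusted p = 0.0474), below the NS values as its host was. This call ended with DESeq2 (0.135) and with any library left out (0.0701 to 0.221). SNORD104, in SNHG25, was at 1.43 and 0.924 CPM in shWNK1 and 1.23 and 3.55 CPM in NS libraries (log2 -1.03, edgeR adjusted p = 0.0925), and SNORA71B, in SNHG17, at 0.573 and 0.584 CPM in shWNK1 and 0.528 and 1.36 CPM in NS libraries (edgeR adjusted p = 0.434). For SNORD104 the log2 fold change was -1.60 with NS replicate 1 left out (edgeR adjusted p = 0.0022) and -0.07 with NS replicate 2 left out (0.951).

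The 7 other nested snoRNAs with at least 10 counts had 0 to 13 counts in any library. SNORA26 in DANCR had 9 and 13 counts with shWNK1 against 3 and 9 with NS. SNORA13 in EPB41L4A-AS1 had 3 and 11 with shWNK1 against 4 and 4 with NS, and SNORA74D in SNHG4 had 5 and 9 with shWNK1 against 2 and 6 with NS. The ranges of these 3 overlapped or touched between the groups. SNORD99 in SNHG12 had 5 and 11 counts with shWNK1 against 11 and 8 with NS. SNORD1B in SNHG16 had 5 and 1 with shWNK1 against 0 and 10 with NS, and SNORD12C in ZFAS1 had 6 and 3 with shWNK1 against 3 and 7 with NS. These also overlapped, unlike SNORD93. All snoRNA genes of the table together took 0.00369% and 0.00333% of all counts with shWNK1, against 0.00402% and 0.00459% with NS (exact permutation p = 0.333, the smallest possible). Mature snoRNAs that lie in annotated host exons were not measured by these counts. For those outside host exons, the counts do not separate mature snoRNA from host RNA that still holds its introns.

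Among transcript starts, a C followed by at least 4 more pyrimidines, read on the transcribed strand at the RefSeq start, was found for 6 of the 23 tested members that have a RefSeq entry (26.1%). The share was 5.21% among starts of all tested genes, 4.07% among all 35116 starts and 59.7% for the 77 cytosolic ribosomal proteins. By call it was 3 of 6 for members that fell (SNHG4, SNHG12 and SNHG19), 1 of 8 for those that rose (ZFAS1) and 2 of 9 for those not called (SNHG32 and SNHG5). In the sequences above, the run is 13 bases long in SNHG4, 11 in SNHG12, 6 in SNHG19 and 5 in ZFAS1, while that of SNHG26 stops at 4. Only 1 RefSeq start per member was read, and the start used in JJN3 may differ from the annotated base. That of GAS5 lies outside the gene as counted. In SNHG16 a run of pyrimidines begins a few bases after the annotated start and was not scored. GAS5 and SNHG16 both rose, so the shares by call depend on the starts read. SNHG6, SNHG15 and SNHG9 had no entry.

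The 6-base word AGTATC, taken from earlier results of these data on 3′ UTRs, was looked for on the transcript strand in all GENCODE v29 transcripts of each member. It was present for 3 of 6 members that fell (SNHG26, SNHG4 and SNHG14), 2 of 10 that rose (SNHG11 and SNHG6) and 5 of 10 not called. Of all tested genes 45.3% held it, and of other long non-coding RNA genes tested 25.8%. Because the word came from these data, the shares by call are no independent test of it. A gene held the word if any of its transcripts did, and their number and length differed widely. SNHG14 had 26 transcripts of up to 13074 bases, and SNHG19 had 1 of 342 bases.

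Genes of the opposite strand whose starts lie within 1000 bases of those of members gave mixed pairs. ZBTB37, a zinc finger gene whose annotated start is 800 bases from that of GAS5, rose with it, at 45.0 and 46.2 CPM in shWNK1 and 28.6 and 29.6 CPM in NS libraries (log2 0.65, edgeR adjusted p = 3.0e-06). SLC3A2, the heavy chain of amino acid transporters, starts 149 bases from SNHG1 and fell by 0.17 on the log2 scale (edgeR adjusted p = 0.0182), while SNHG1 was not called. ZNFX1, opposite ZFAS1, was at 43.0 and 46.8 CPM in shWNK1 and 46.5 and 45.5 CPM in NS libraries (edgeR adjusted p = 0.814), and TRAF7, opposite SNHG19, was at 160 and 155 CPM in shWNK1 and 173 and 175 CPM in NS libraries (edgeR adjusted p = 0.0679). BARD1 opposite SNHG31 and RPS2 opposite SNHG9 were not called. Some pairs overlap. The span of ZBTB37 holds 2.66% of the exon bases of GAS5, and that of ZNFX1 holds 2.99% of those of ZFAS1. Reads there cannot be told apart because strand was not used.

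RNAs of genes for proteins that bind and assemble snoRNAs were mostly lower. Across all tested genes 18.5% rose and 20.2% fell. Neither this list nor those below were matched to all tested genes for depth, and no test was made between them. Of 18 genes for snoRNP proteins and assembly factors, 14 fell, 0 rose and 4 were not called, with a median log2 fold change of -0.37; 11 to 14 fell when 1 library was left out. SNU13, a core protein of box C/D particles, was at 162 and 154 CPM in shWNK1 and 256 and 299.9 CPM in NS libraries (log2 -0.81, SE 0.07, edgeR adjusted p = 4.0e-11). NOP56, another C/D core protein and itself a snoRNA host, fell by 0.58 on the log2 scale. Among protein-coding genes that hold a snoRNA gene, leaving out ribosomal proteins, 25 of 134 rose (18.7%) and 51 fell (38.1%). The median was -0.11, and the share of rises was near that over all tested genes. There were 13 rises when shWNK1 replicate 1 was left out and 16 when shWNK1 replicate 2 was. Their leading rises were those of the translation factors EIF5 (log2 0.47) and EIF4A2 (0.47), and their leading falls those of the polyamine enzyme ODC1 (-1.85) and of NUCKS1 (-1.02).

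The RNAs that share features with host genes were described in the same way. Of 77 cytosolic ribosomal protein genes, 50 fell (64.9%) and 0 rose, with a median of -0.22. Together they took 5.74% and 5.77% of all counts with shWNK1, against 5.90% in NS replicate 1 and 6.72% in NS replicate 2. The size of this gap thus depended on the NS library. There were 19 falls when shWNK1 replicate 1 was left out and 28 when shWNK1 replicate 2 was, and 3 genes rose without NS replicate 2. Of 21 tested other mRNAs known for terminal oligopyrimidine starts, 9 fell and 1, EIF4A2, rose, with a median of -0.12; there were 4 falls without shWNK1 replicate 1. NPM1, a nucleolar chaperone, fell by 0.38 and the ribosomal scaffold RACK1 by 0.30.

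Factors of nonsense-mediated decay and of the exon junction complex went both ways. Among 19 there were 5 rises (26.3%) and 7 falls (36.8%), with a median of -0.06. SMG9 (log2 0.70) and SMG6 (0.68), the endonuclease of the pathway, rose. The kinase SMG1 (-0.36) and the junction protein MAGOH (-0.78) fell. There were 2 to 3 rises without NS replicate 2 or either shWNK1 library, and 4 falls without shWNK1 replicate 1. Of 14 genes with mRNAs known as targets of the pathway, 4 rose and 6 fell, with a median of -0.09. The rises included the stress gene GADD45A (1.01), and the falls the splicing factors SRSF2 (-0.44) and SRSF3 (-0.39). Counts are per gene, so that target and other transcripts of a gene were not separated. Of 13 RNA decay and nuclear exosome factors, 2 rose, ZCCHC8 (0.33) and ZFC3H1 (0.26), and 5 fell, including the poly(A) polymerase TENT4B (-1.01) and the exonuclease XRN1 (-0.41), with a median of -0.14. That list had 0 rises with shWNK1 replicate 1 left out, and 1 with shWNK1 replicate 2 or NS replicate 2 left out.

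Long non-coding RNA genes outside the list had lower counts than the members. Of 1723 tested, 152 rose (8.82%) and 84 fell (4.88%), with a median of 0.11 and a median level of 1.40 CPM, whereas the members' median level was 52.7 CPM. These shares are not comparable at equal depth, and no test was made between the lists.

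**Figure D4:**
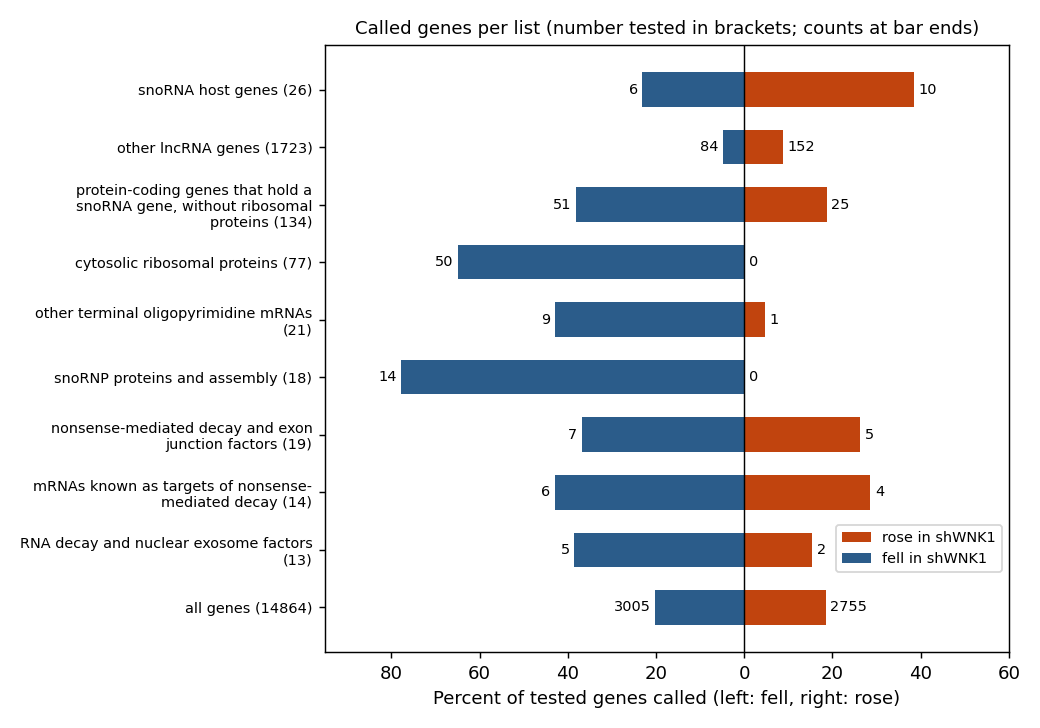
Percent of tested genes in each list that rose (right) or fell (left) in shWNK1 cells, with the number of genes at the bar ends and the number tested in brackets. The host genes show 10 rises and 6 falls, the ribosomal proteins 50 falls and 0 rises, and the snoRNP proteins 14 falls and 0 rises.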

How the data were processed

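Total RNA of 4 JJN3 libraries was sequenced. The deposited table holds raw counts of fragments per gene. Per the file headers, featureCounts v2.0.0 was run with GENCODE v34, ignoring strand and keeping pairs that mapped at both ends, were not chimeric and reached quality 20. Trimmomatic, STAR and hg38 are named in the submitters' processing notes. Reads of overlapping genes, and of snoRNA copies that map to several places, are lost or mixed by such counting.

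A gene broken over 3 lines and 45 Y copies of pseudoautosomal genes were left out, leaving 60682 genes, of which 60369 identifiers matched a symbol. The test was that of edgeR 4.0.16 (R 4.3.3; filterByExpr, TMM, robust glmQLFit, glmQLFTest, two-sided), with 2 residual degrees of freedom and calls at a Benjamini-Hochberg adjusted p under 0.05. The code was tested on simulated data. CPM values use TMM library sizes. Intervals and floors cover counting error only. A title spelled shNWK1 was read as shWNK1. The labels do not say whether replicates are separate transductions, and p-values therefore cover the spread among 4 libraries, which may be technical.

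Named genes were every member, WNK1 and up to 2 rises and 2 falls of each list by smallest p. Nested snoRNAs with at least 10 counts were named too, as were opposite-strand genes with starts within 1000 bases of those of tested members. Overlapping genes were picked by hand outside this rule. The members and lists were chosen with earlier results of these data known. Sequences come from RefSeq (GRCh38.p14; 28 of 32 members matched a start) and GENCODE v29. DESeq2 1.42.0, limma-voom (limma 3.58.1), other factors and filters, a block and left-out libraries were the alternatives.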

Additional observations from a re-analysis of the deposited data

How the results depend on the processing

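The members' rises and falls were within 1.5 times of 10 and 6 under DESeq2, limma-voom, RLE and upper-quartile factors, both other filters, both composition settings and the replicate block. Against a fold change of 1.5 there were 303 rises and 353 falls over all genes, and 0 and 1 among the members; the counts then were 0 rises and 3 falls of snoRNP genes, 0 and 0 of decay and exon junction factors, 1 and 0 of decay targets, 0 and 0 of other oligopyrimidine mRNAs, 0 falls of ribosomal proteins, 0 and 1 of exosome factors, 0 and 5 of protein-coding hosts and 0 nested snoRNAs. With 1 library left out, rises over all genes ranged from 1632 to 2778 and falls from 1964 to 3024, the members' rises from 5 to 13 and falls from 5 to 8, and their median from 0.03 to 0.22. Rises and falls in the same fits ranged from 2 to 5 and 4 to 7 for decay and junction factors, falls from 4 to 12 for other oligopyrimidine mRNAs, falls from 19 to 68 and rises from 0 to 3 for ribosomal proteins, rises from 0 to 2 for exosome factors, rises from 13 to 29 for protein-coding hosts, and falls of nested snoRNAs from 0 to 1, the 1 being SNORD104 without NS replicate 1.

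The members' median was -0.0036 with no low-count filter, where 31 members were tested. DESeq2 gave 3 rises of decay and junction factors and 1 of exosome factors. Ribosomal protein rises were 1 with limma-voom, with no filter and with the filter of 1 CPM, and 2 with upper-quartile factors, which also gave 2 rises of other oligopyrimidine mRNAs and moved the calls over all genes to 54.1% rises (47.8% with TMM). The fall of SNORA73B was not called under DESeq2, limma-voom, upper-quartile factors, no filter or the block, which each left 0.

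Same-numbered libraries did not deviate together (correlation -0.0047), so the replicate block is given here alone: 10 members rose and 5 fell, with SNHG12 (0.0648) and ZFAS1 (0.0503) no longer called and SNHG32 called (0.0057). Signs turned, in fits that did not call the gene, for SNHG1 (-0.0036 with no filter, -0.0021 without shWNK1 replicate 1), and the log2 fold change ranged with 1 library left out from -0.04 to 0.05 for SNHG1, -0.14 to 0.02 for SNHG9, -0.19 to 0.09 for SNHG7, -0.04 to 0.20 for UBE3A and -1.22 to 0.14 for SNORA71B. With upper-quartile factors DANCR and SNHG5 were called as rises and SNHG12 was not called. The cause of these shifts was not tested. SNHG9 and SNHG31, the tested members with the lowest CPM, had SEs of 0.50 and 0.34 on the log2 scale.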
